A study of Mus musculus with 18 samples.

Results

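Mitosis genes are described here across 6 groups of mouse lung cancer cells in which the kinase DSTYK was lowered, raised or left alone. The 48 genes were chosen by symbol for proteins that start, carry out or control mitosis. The rule used no measured value, although earlier results of these data were known when the list was drawn up. All 48 were found among the 36047 genes with a listed transcript. Estimated transcript counts were available for 18 libraries, 3 in each group. LLC (Lewis lung carcinoma) carries the labels lung adenocarcinoma and C57BL/6, and UN-SCC679 carries the labels lung squamous carcinoma and A/J. In each line, cells with a hairpin called sh3 in the TPLKO vector stood beside cells with the empty TPLKO vector, and all 4 of these groups received doxycycline, so the hairpin and its control share the vector and the drug. In UN-SCC679, cells carrying wild-type DSTYK on pLENTI6 (OE_DSTYKwt) stood beside cells with empty pLENTI6, with no treatment named for either. A single hairpin was used, and the labels do not say whether the cells were a pool or a clone, or whether replicates were separate cultures. The p-values below therefore rest on how these libraries vary among themselves, and that variation may be technical.

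Entry into mitosis is driven by cyclin-dependent kinase 1 bound to cyclins of the A and B types, and phosphatases of the CDC25 family switch this kinase on. Kinetochores then attach the chromosomes to the spindle, the spindle checkpoint holds back the anaphase-promoting complex until every chromosome is attached, and cytokinesis separates the daughter cells. Most of these genes are transcribed late in the cell cycle. Their promoters often hold CCAAT boxes, which NF-Y binds, and a cell cycle genes homology region, TTTGAA or a variant such as TTCGAA, through which the MuvB complex brings repressors in resting cells and B-MYB and FOXM1 in dividing cells. In tumours the level of such genes is widely read as a sign of how many cells divide. In bulk RNA, fewer cells in mitosis and less RNA per cell cannot be told apart.

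The promoters of Psrc1 and Cdc25b, which had the largest rises with the hairpin in both lines, and of Mki67 and Smc2, which had the largest fall in LLC and in UN-SCC679, are printed as the 250 bases before the RefSeq transcription start on GRCm38.p6, 5′ to 3′ along the gene. Capitals mark CCAAT as well as TTTGAA or its variant TTCGAA on either strand, and thus also their reverse forms such as ATTGG. The windows are chr3:108383554-108383803 (plus strand) for Psrc1, chr2:131186698-131186947 (plus strand) for Cdc25b, chr7:135716380-135716629 (minus strand) for Mki67 and chr4:52438971-52439220 (plus strand) for Smc2.
Psrc1: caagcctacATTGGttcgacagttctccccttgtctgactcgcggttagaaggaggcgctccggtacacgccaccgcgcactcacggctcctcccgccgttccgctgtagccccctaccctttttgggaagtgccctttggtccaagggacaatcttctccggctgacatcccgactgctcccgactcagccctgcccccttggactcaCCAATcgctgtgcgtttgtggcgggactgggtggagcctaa
Cdc25b: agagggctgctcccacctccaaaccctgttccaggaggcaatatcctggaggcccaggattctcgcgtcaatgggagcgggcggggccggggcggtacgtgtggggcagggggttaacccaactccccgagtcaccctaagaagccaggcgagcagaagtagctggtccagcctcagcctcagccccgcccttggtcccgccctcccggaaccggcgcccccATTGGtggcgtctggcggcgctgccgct
Mki67: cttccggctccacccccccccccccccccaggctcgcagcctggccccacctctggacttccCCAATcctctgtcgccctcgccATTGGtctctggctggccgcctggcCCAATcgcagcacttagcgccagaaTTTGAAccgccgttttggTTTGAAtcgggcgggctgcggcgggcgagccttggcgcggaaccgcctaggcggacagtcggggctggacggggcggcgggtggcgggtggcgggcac
Smc2: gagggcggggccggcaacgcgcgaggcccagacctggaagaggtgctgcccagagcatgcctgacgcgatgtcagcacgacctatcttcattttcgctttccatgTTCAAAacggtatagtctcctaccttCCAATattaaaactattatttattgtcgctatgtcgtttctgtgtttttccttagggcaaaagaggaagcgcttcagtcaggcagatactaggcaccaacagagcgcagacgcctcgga
Mki67 held 3 CCAAT boxes and 2 copies of TTTGAA in this stretch, and Smc2 held 1 of each. Psrc1 held 2 CCAAT boxes and Cdc25b held 1, with neither TTTGAA nor TTCGAA before the start. In both, TTCGAA lay just after this start, as it did in Bub1, a checkpoint kinase that rose in LLC. For Psrc1 the position depends on the start chosen: RefSeq has a second start 34 bases downstream, from which TTCGAA lies at -30, before the start. The first 30 bases from each start show it in capitals, at chr3:108383804-108383833, chr2:131186948-131186977 and chr2:127831830-127831859 (minus strand).
Psrc1: gaaaTTCGAAcgaagctccgcccctcggga
Cdc25b: gttatttTTCGAAtatataaggaggtggag
Bub1: ggctgcgcggggaaTTCGAAtcgccggcgg

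The RefSeq table gave 43 promoter windows of 300 bases (250 before and 50 after the start) for 39 of the 48 genes, 4 of which had 2 windows. CCAAT, searched on both strands, was in 79.1% of these windows against 37.4% of all 32851 windows in the table. TTTGAA or TTCGAA was in 81.4% against 19.2%, and both kinds of motif were in 74.4% against 7.52%. Among the 12749 windows of genes tested in LLC, the shares were 38% for CCAAT, 14.4% for TTTGAA or TTCGAA and 6.02% for both. GGCGG was in 93% of the windows of mitosis genes, 77.5% of those of genes tested in LLC and 48.8% of all windows; it can share its end with CCAAT, and the motifs were counted separately. The first base of CCAAT lay at a median position of -74 from the start and that of TTTGAA or TTCGAA at -16.5. TTCGAA was held by 5 of the genes, Psrc1, Cdc25b, Bub1, Bub1b and Top2a, of which Bub1b and Top2a also held TTTGAA. It was in 14% of the windows of mitosis genes, 2.07% of those of genes tested in LLC and 1.56% of all windows. Of these 5, 4 rose with the hairpin in LLC and 3 in UN-SCC679, and Top2a fell in both. Of all 48, 20 rose in LLC and 11 in UN-SCC679, against 36.2% and 31.8% of all genes tested. Psrc1 and Cdc25b are printed above because they rose. Both are among the TTCGAA genes counted as rising in each line, so these counts cannot test a link with the motif. Of the others, Bub1 and Bub1b rose in LLC and Bub1b in UN-SCC679. In Bub1b TTCGAA lay at -188 and in Top2a at -140 and -120, unlike the matches just after the start printed above. Windows with both kinds of motif made up 84.2% of the 19 windows of genes that rose and 63.2% of the 19 of genes that fell in LLC, and 66.7% of 9 and 76% of 25 in UN-SCC679. These are matches of letters and say nothing of binding.

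Libraries held between 40525385 and 46528071 estimated counts, of which the mitosis genes took between 0.734% and 0.837%. By edgeR's common dispersion, libraries within a group varied by 2.65% in the LLC hairpin comparison, 3.76% in the UN-SCC679 hairpin comparison and 3.79% in the overexpression comparison. The first empty pLENTI6 library stood apart from the other 2 of its group, and the counts of calls that rest on it are given with and without it. Dstyk had 42.8, 40.6 and 44.8 CPM (counts relative to library size after scaling by trimmed means of M-values, TMM) in LLC with the empty vector and 22.7, 23.97 and 22.5 CPM with sh3, 36.4, 36.2 and 37.9 CPM and 26.6, 26.7 and 25.1 CPM in the same groups of UN-SCC679, and 29.5, 31.0 and 32.3 CPM with empty pLENTI6 against 37.2, 37.4 and 38.6 CPM with OE_DSTYKwt. It fell by 0.89 and 0.50 on the log2 scale with the hairpin and was 1.22-fold higher with OE_DSTYKwt (adjusted p = 0.000641 by edgeR's quasi-likelihood test, with adjustment by Benjamini-Hochberg), with no overlap in any of the 3. The labelled cell types were only partly met by their markers: in LLC all 9 squamous markers and 7 of 8 alveolar markers were under 1 TPM (counts per transcript length, scaled to the same sum in every library), with Nkx2-1 at 0 to 0.0259 TPM. In the UN-SCC679 groups, 4 to 6 of the 9 squamous markers and 7 of the 8 alveolar markers were under 1 TPM. Of the squamous markers there, Pkp1 had 39.4 to 73.6 TPM, Sox2 28.2 to 69.3 TPM and Krt6a 0.339 to 59.3 TPM. Krt14 had 0.779 to 16.3 TPM, Trp63 0.907 to 5.98 TPM and Krt5 0 to 0.0327 TPM. The alveolar list was above 1 TPM there only for Nkx2-1, at 28.1 to 42.1 TPM. Leukocyte markers summed to between 2.46 and 7.08 TPM in all libraries. The sum of 7 fibroblast markers was 22.1 to 23.4 TPM in LLC with the empty vector and 39.9 to 41.5 TPM with sh3, and 3890 to 4000 TPM and 3150 to 3210 TPM in the same groups of UN-SCC679, where Col1a2 made up most of it. The lower sum there came from Col1a2, which fell by 0.44 on the log2 scale, while 5 of the 7 markers rose, among them Pdgfra by 3.04, Acta2 by 1.86 and Col1a1 by 1.05. In LLC 4 of the 7 rose and 2 fell. The sum of 7 epithelial markers was 543 to 567 TPM with the empty vector and 341 to 358 TPM with sh3 in UN-SCC679. In LLC it was 40.7 to 46.2 and 41.7 to 43.5 TPM. Of the 7, 4 were under 1 TPM in every UN-SCC679 group and 6 in both LLC groups. In the UN-SCC679 groups Epcam had 0.00801 to 0.0884 TPM, Cdh1 0.00779 to 0.195 TPM and Cldn7 0.235 to 0.468 TPM. Krt8 and Krt18 made up most of the sum in UN-SCC679 and fell there by 0.62 and 0.80. Of the 4 epithelial markers tested there, 2 rose and 2 fell. Krt7 had means of 1.44 TPM with the empty vector and 2.56 TPM with sh3, and Krt19 had 0 and 0.532 TPM. The part of these markers in the differences below was not tested.

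Top2a, the topoisomerase that untangles sister chromatids, had the highest level per length of the 48 in both LLC groups and both UN-SCC679 groups with TPLKO. Cdk1, the kinase of mitotic entry, was highest in both groups with pLENTI6 and came after Top2a in the others of UN-SCC679, but in LLC it also stood below Ccnb1 and, with sh3, below Ube2c. Top2a had a mean of 472.3 ± 5.33 TPM in LLC with the empty vector and 422.4 ± 4.02 TPM in UN-SCC679 with the empty TPLKO vector (SD, n = 3). Cdk1 ranged from 235.9 ± 4.27 TPM in LLC with sh3 to 404.5 ± 11.9 TPM in UN-SCC679 with empty pLENTI6, and there it stood above Top2a, at 325.1 ± 14.3 TPM. At the other end, Psrc1, which binds microtubules and takes part in chromosome alignment, had 11.79 ± 0.0808 TPM in LLC and 11.67 ± 0.368 TPM in UN-SCC679 with the empty TPLKO vector. Ttk, a checkpoint kinase also called MPS1, had 14.21 ± 0.0265 TPM in LLC with the empty vector. The lowest and highest members thus differed widely in level, and even Psrc1 had at least 386 counts in every library. The mitosis genes were abundant beside other genes: their median log2 CPM was 7 in the LLC comparison against 4.69 over all genes tested there.

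**Figure D1:**
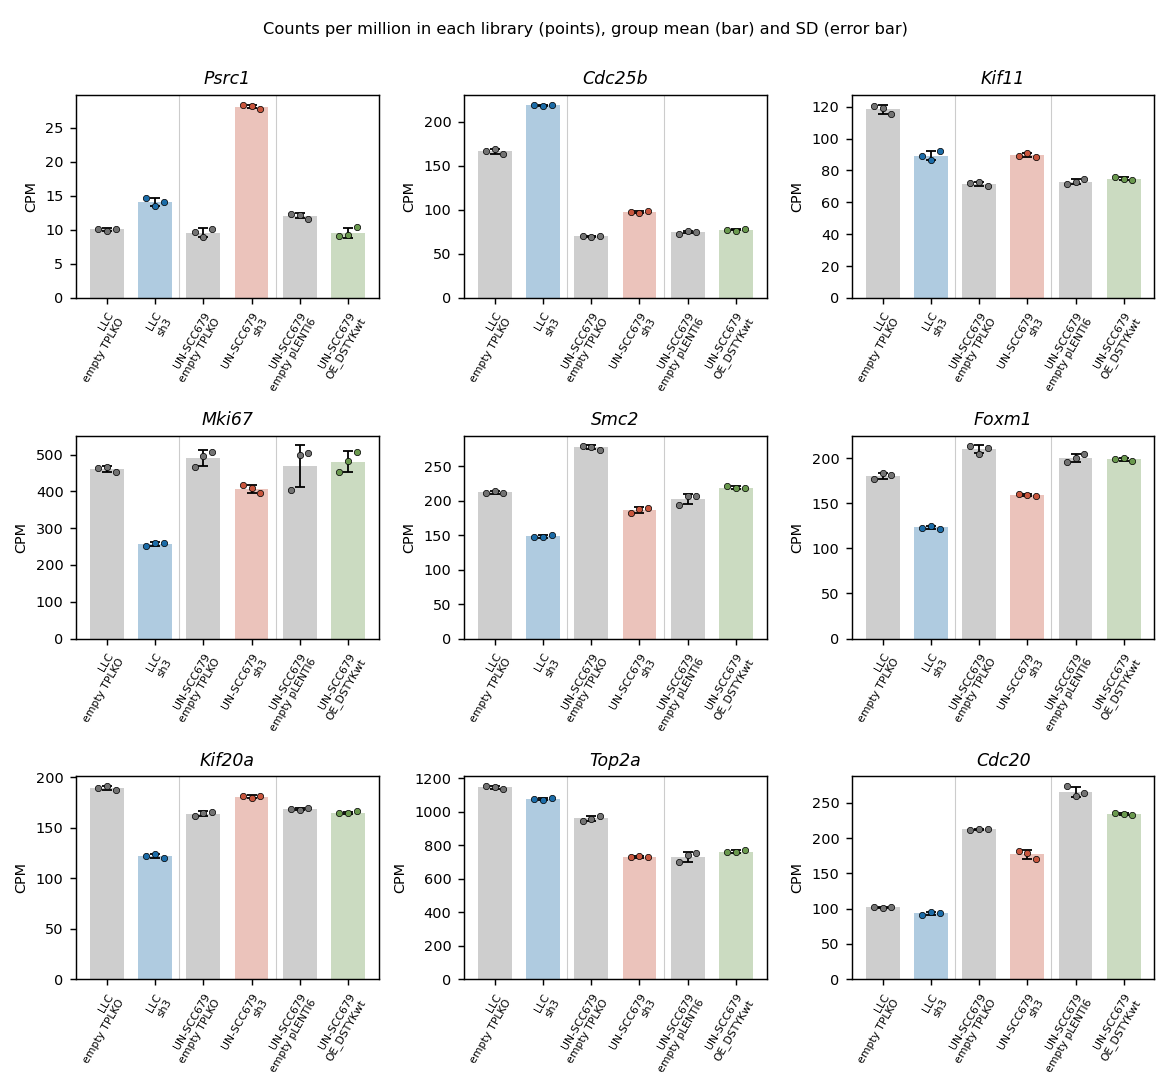
CPM (vertical axes, starting at 0) of 9 mitosis genes in each of the 18 libraries (points), with the group mean (bar) and SD (error bar) for the 6 groups of 3. Psrc1 stands near 28 CPM in the 3 UN-SCC679 sh3 libraries and at 14.74 CPM or less in all others, and the first empty pLENTI6 library lies low for Mki67.

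In LLC, the hairpin moved mitosis genes in both directions by small amounts. Of the 48 genes, 20 rose and 23 fell at an adjusted p under 0.05, which is 89.6% of them against 72.6% of all 13767 genes tested (36.2% higher and 36.4% lower). The 2 groups did not overlap for 43 of the 48, against 76% of all genes. Psrc1 and the phosphatase gene Cdc25b rose the most, and Mki67, whose protein coats mitotic chromosomes, fell the most. The median change of the 48 was -0.011 on the log2 scale against 0.0099 for all genes, and its sign depended on the setting, from -0.041 to 0.018.

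Among the 7 genes of mitotic entry, 2 rose and 5 fell in LLC. Cdc25b, which activates cyclin-dependent kinase 1, had 167, 169 and 163 CPM with the empty vector and 219, 218 and 218 CPM with sh3. All 3 hairpin libraries lay above all 3 empty ones, a difference of 0.39 on the log2 scale (SE 0.018; adjusted p = 4.66e-10 by edgeR's quasi-likelihood test, adjusted by Benjamini-Hochberg like every adjusted p below). Foxm1, the transcription factor that switches on many late cell cycle genes, had 176, 183 and 181 CPM with the empty vector and 123, 125 and 121 CPM with sh3. It fell by 0.55 (SE 0.021; adjusted p = 9.39e-11), again with no overlap. Ccnb1, the main mitotic cyclin, fell by 0.18, and Cdk1 itself fell by 0.20, while Ccnb2, the second B-type cyclin, rose by 0.13. Of the kinases that act early in mitosis, Plk1 fell by 0.23 and Aurka, a centrosome and spindle kinase, rose by 0.074.

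The checkpoint and anaphase genes of LLC were split as well. Bub1, a kinase of the spindle checkpoint, had 131, 134 and 130 CPM with the empty vector and 162, 164 and 160 CPM with sh3, and rose by 0.30 (adjusted p = 2.19e-08). Bub1b rose by 0.076, and the checkpoint genes Bub3, Mad2l1 and Ttk fell by 0.29, 0.13 and 0.12. Of the 4 genes of anaphase onset, 3 rose. Pttg1, or securin, which holds separase inactive until anaphase, rose by 0.29 (adjusted p = 6.66e-05), from 19.32 ± 0.619 to 23.58 ± 0.626 CPM. Espl1, or separase, which cuts cohesin, and Ube2c, the ubiquitin-conjugating enzyme of the anaphase-promoting complex, each rose by 0.14. Cdc20, which activates that complex, fell by 0.12 (adjusted p = 0.000447). Within the chromosomal passenger complex, which corrects faulty attachments, the kinase gene Aurkb rose by 0.18 and Cdca8 by 0.14, while its scaffold Incenp fell by 0.28 and Birc5 by 0.37.

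Genes of the kinetochore and the spindle held some of the larger falls in LLC. Cenpe, the kinesin that carries chromosomes to the spindle equator, fell by 0.52 (adjusted p = 7.18e-10), from 158.3 ± 4.68 to 110.1 ± 2.0 CPM. Ndc80 and Nuf2, which form the microtubule grip of the kinetochore together, fell by 0.39 and 0.29, but Spc25, a further subunit of the same complex, had a difference of -0.00058 (adjusted p = 0.992). Cenpa, the histone variant that marks centromeres, rose by 0.23. Kif11, the motor that pushes spindle poles apart, had 121, 120 and 115 CPM with the empty vector and 89.2, 86.7 and 92.2 CPM with sh3. The groups did not overlap, and Kif11 fell by 0.41 (SE 0.028; adjusted p = 2.43e-08).

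Psrc1 had 10.2, 9.85 and 10.2 CPM in LLC with the empty vector and 14.7, 13.5 and 14.03 CPM with sh3, a rise of 0.49 (SE 0.062; adjusted p = 1.13e-05). Dlgap5, which stabilises spindle fibres, rose by 0.30 and Hmmr, a spindle-pole protein, by 0.19. Kif4, the motor that helps to condense chromosomes and to shorten the central spindle, fell by 0.43. Its fall was close to that of Kif11 in size, so the motors and microtubule-binding proteins as a group went both ways, with 4 higher and 3 lower of 8.

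Of the 5 genes of the central spindle and cytokinesis, Kif20a, the kinesin that brings passenger proteins to the midzone, stood alone in falling in LLC. It had 189, 191 and 187 CPM with the empty vector and 122, 124 and 120 CPM with sh3, a fall of 0.64 (SE 0.019; adjusted p = 1.24e-11). Anln, which crosslinks the contractile ring, rose by 0.17, and Prc1, which bundles midzone microtubules, by 0.058 (adjusted p = 0.0095), a call lost without the third empty TPLKO library (adjusted p = 0.0553). Kif23, a subunit of centralspindlin, rose by 0.19 in counts, but with transcript lengths as an offset its difference was -0.13 (adjusted p = 0.0505). The genes of chromosome structure gave the largest fall. Mki67 had 463, 467 and 453 CPM with the empty vector and 251, 259 and 261 CPM with sh3, a fall of 0.84 (SE 0.018; adjusted p = 6.55e-13), and no library of either group came near the other. The condensin subunits Ncapd2 and Smc2 fell by 0.63 and 0.52 (adjusted p = 7.45e-12 and 4.34e-11), while Smc4, the direct partner of Smc2 in condensin, rose by 0.20 (adjusted p = 7.74e-07). Ncapg and Ncaph had differences of -0.0065 and 0.0089.

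**Figure D2:**
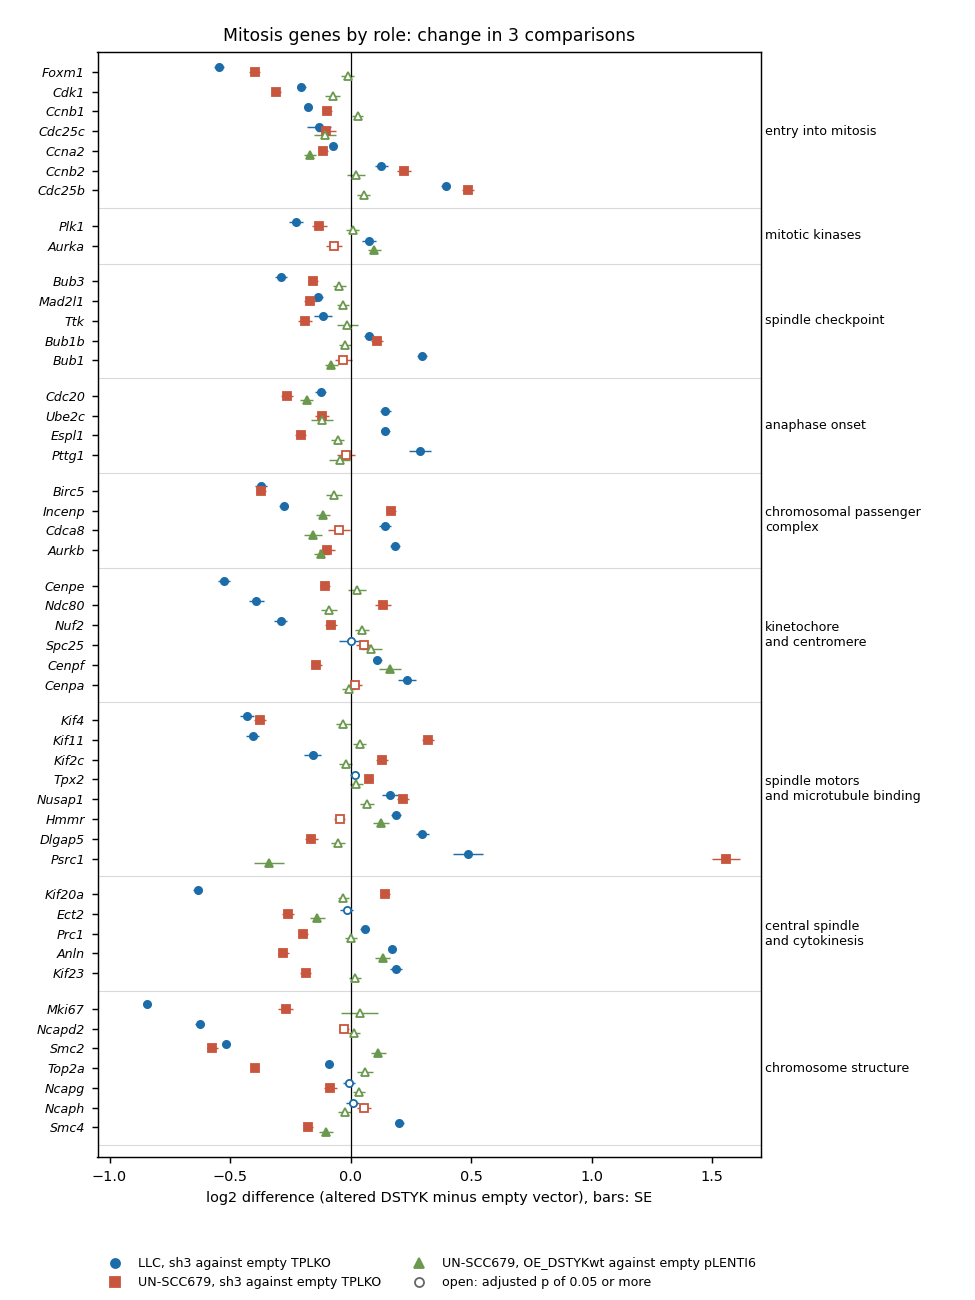
Log2 difference (horizontal axis; altered DSTYK minus empty vector, bars: SE) of the 48 mitosis genes by role in LLC sh3 (circles), UN-SCC679 sh3 (squares) and UN-SCC679 OE_DSTYKwt (triangles), with open symbols for an adjusted p of 0.05 or more. Psrc1 in UN-SCC679, at 1.56, lies alone on the right, and Mki67 in LLC, at -0.84, lies farthest to the left.

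In UN-SCC679, the hairpin lowered more mitosis genes than it raised. Of the 48 genes, 11 rose and 28 fell, which is 81.2% of them against 63.8% of all 14271 genes tested (31.8% higher and 32% lower), and the groups did not overlap for 42 of the 48 against 68.2% of all genes. The median change of the 48 was -0.099 on the log2 scale against 0.011 for all genes, and it lay between -0.11 and -0.039 under the other settings. With scaling by library size alone, 14 rose and 20 fell. Psrc1 rose by far the most, and Smc2 fell the most.

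Entry into mitosis showed the same split as in LLC, with 2 of 7 genes higher and 5 lower. Cdc25b had 70.6, 68.6 and 69.8 CPM with the empty vector and 97.9, 96.1 and 98.8 CPM with sh3, a rise of 0.49 (SE 0.026; adjusted p = 1.37e-08). Ccnb2 rose by 0.22. Foxm1 had 213, 205 and 211 CPM with the empty vector and 160, 159 and 158 CPM with sh3, and fell by 0.40 (adjusted p = 1.83e-08). Both genes thus moved without overlap between the groups, Cdc25b up and Foxm1 down. Cdk1 fell by 0.31 (adjusted p = 7.97e-08), and Ccna2, Ccnb1 and Cdc25c fell by 0.11, 0.097 and 0.10.

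No gene of anaphase onset rose in UN-SCC679. Cdc20 had 211, 212 and 213 CPM with the empty vector and 181, 179 and 170 CPM with sh3, a fall of 0.26 (adjusted p = 2.36e-06). Espl1 fell by 0.21 and Ube2c by 0.12, the second with an adjusted p of 0.0838 when scaled by library size alone, and Pttg1 had a difference of -0.020 (adjusted p = 0.671). In the checkpoint group Ttk, Mad2l1 and Bub3 fell by 0.19, 0.17 and 0.16, Bub1b rose by 0.11, and Bub1 had a difference of -0.030 (adjusted p = 0.482). Of the passenger complex, Incenp rose by 0.17 (adjusted p = 2.48e-05) and Birc5 fell by 0.37 (adjusted p = 3.78e-08). Aurkb fell by 0.097 (adjusted p = 0.0237), and this call was lost with library size alone (adjusted p = 0.353), without the third empty library (adjusted p = 0.0896) and without the second or the third sh3 library (adjusted p = 0.0862 and 0.0545).

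Psrc1 had 9.67, 8.90 and 10.1 CPM in UN-SCC679 with the empty vector and 28.3, 28.2 and 27.8 CPM with sh3. The difference was 1.56 on the log2 scale (SE 0.057; adjusted p = 5.77e-10), or 2.94-fold, and Psrc1 alone among the 48 genes reached a 1.5-fold change there. Kif11 had 72.3, 72.5 and 70.3 CPM with the empty vector and 89.3, 90.9 and 88.4 CPM with sh3, and rose by 0.32 (SE 0.026; adjusted p = 6.25e-07). Nusap1, which binds and bundles spindle microtubules, rose by 0.22, Kif2c, a kinesin that takes microtubules apart, by 0.13, and Tpx2, which activates Aurora A on the spindle, by 0.075. Kif4 fell by 0.38 (adjusted p = 1.54e-07) and Dlgap5 by 0.16. Spindle motors and microtubule-binding proteins were the role with the most rises, 5 of 8, against 6 of the other 40 genes.

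No gene of chromosome structure rose, and 5 of 7 fell. Smc2 had 279, 278 and 274 CPM with the empty vector and 181, 188 and 190 CPM with sh3, a fall of 0.57 (SE 0.022; adjusted p = 8.62e-10). Top2a had 948, 958 and 977 CPM with the empty vector and 729, 734 and 728 CPM with sh3, and fell by 0.40 (SE 0.016; adjusted p = 1.75e-09). In neither gene did a library of the hairpin group reach the empty group. Mki67 fell by 0.27 (adjusted p = 8.89e-06), from 490.8 ± 21.5 to 407.0 ± 10.3 CPM, Smc4 by 0.18 and Ncapg by 0.084. Among the genes of cytokinesis, Anln fell by 0.28, Ect2, the exchange factor that switches on the contractile ring, by 0.26, Prc1 by 0.20 and Kif23 by 0.19, and Kif20a rose by 0.14 (adjusted p = 8.24e-05). At the kinetochore, Ndc80 rose by 0.13 (adjusted p = 0.00499), Cenpf, Cenpe and Nuf2 fell by 0.14, 0.11 and 0.082, and Cenpa and Spc25 had differences of 0.017 and 0.054 that did not pass the test.

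Some chromosomes moved as a whole with the hairpin. In UN-SCC679 this held for several that carry genes that rose. The median change was 0.29 over 493 genes of chromosome 19, which holds Kif11 and Incenp, 0.25 over 733 genes of chromosome 17, which holds Ndc80, and 0.097 over 1149 genes of chromosome 2, which holds 9 of the 48. Kif11, Incenp, Ndc80 and, on chromosome 2, Cdc25b, Bub1b, Nusap1 and Tpx2 were among the 11 that rose. Of the other 5 on chromosome 2, Aurka, Bub1, Ncaph and Spc25 were not called and Ube2c fell. Chromosomes 16 and 8, which hold none of the 48, had medians of 0.16 and -0.19. Psrc1 lies on chromosome 3, where the median was 0.037. In LLC the median change was 0.038 over 473 genes of chromosome 19 and 0.048 over 1150 genes of chromosome 2, but other chromosomes moved. The median was -0.17 over 356 genes of chromosome 18, which holds Kif20a and Cdc25c, both of which fell there. It was 0.14 on chromosome 1, where Cenpf rose and Nuf2 fell, and -0.1 on chromosome 11, where 3 of 5 mitosis genes rose. On chromosome 6 it was 0.1, and Foxm1, Ncapd2 and Mad2l1 fell. The part of these chromosome-wide differences in the changes of single genes was not tested.

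The hairpin effect was next compared between the lines, which share no library. Of the 48 genes, 15 had a higher effect in UN-SCC679 than in LLC and 19 a lower effect by the interaction test, 70.8% of them against 60% of all 15399 genes tested (31.9% higher and 28.1% lower). The same direction was called in both lines for 22 genes. Of all genes tested, 36.2% were called higher and 36.4% lower in LLC, and 31.8% and 32% in UN-SCC679. How many of all genes were called the same or the opposite way in both lines was not counted. Of these 22 mitosis genes, 5 rose in both, Cdc25b, Psrc1, Ccnb2, Bub1b and Nusap1, and 17 fell in both, which is 17 of the 23 that fell in LLC and 17 of the 28 that fell in UN-SCC679. Foxm1, Cdk1, Ccnb1, Plk1, Birc5, Smc2, Kif4 and Mki67 were among these 17. Across the 48 genes the effects in the lines had a Pearson correlation of 0.37 and a Spearman correlation of 0.25, a description over genes that are not independent of each other, and without Psrc1 the first was 0.26.

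For 14 genes the effect was called in opposite directions in the 2 lines, and the share of all genes called so was not counted. The calls of Kif23, Kif2c and Prc1 in LLC and of Ube2c and Aurkb in UN-SCC679 were each lost in at least 1 other setting. Kif11, Kif20a, Ndc80, Incenp and Kif2c fell in LLC and rose in UN-SCC679, and all 5 had a higher effect in UN-SCC679 by the interaction test. Kif20a differed by 0.78 (SE 0.028; adjusted p = 9.89e-13) and Kif11 by 0.73 (SE 0.037; adjusted p = 6.06e-11), followed by Ndc80 with 0.53 and Incenp with 0.45. In the other direction, Anln, Kif23, Espl1, Dlgap5, Smc4, Prc1, Cenpf, Ube2c and Aurkb rose in LLC and fell in UN-SCC679, and all 9 had a lower effect in UN-SCC679. Dlgap5 differed by -0.46, Anln by -0.44, Smc4 and Kif23 by -0.37 and Espl1 by -0.35. The interaction for Kif23 was -0.14 (adjusted p = 0.127) with transcript lengths as an offset. All 4 genes of anaphase onset had a lower effect in UN-SCC679, as did 4 of the 5 genes of cytokinesis, with Kif20a the exception.

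Genes that moved in the same direction could still differ in size. Psrc1 rose by 1.07 more in UN-SCC679 (SE 0.082; adjusted p = 8.28e-09) and was alone in differing 2-fold, against 15.5% of all genes, while 4 genes differed 1.5-fold, against 27.5%. Of the other genes, Mki67 fell by 0.84 in LLC against 0.27 in UN-SCC679, a difference of 0.58 (adjusted p = 3.49e-09). Ncapd2, a condensin subunit, fell in LLC and had a difference of -0.029 (adjusted p = 0.238) in UN-SCC679, and the effects differed by 0.60 (adjusted p = 9.82e-12). Top2a fell more in UN-SCC679, by 0.40 against 0.091. Dstyk itself was lowered less in UN-SCC679 than in LLC, with an interaction of 0.40 (adjusted p = 3.49e-05), so the 2 hairpin effects are not at a matched level of Dstyk.

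**Figure D3:**
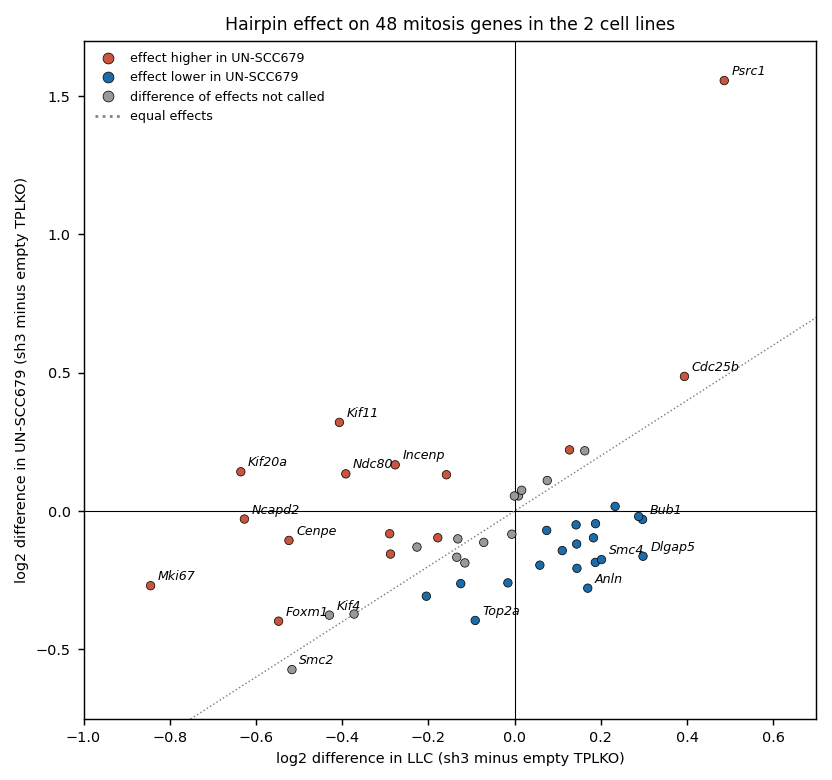
Log2 difference with the hairpin in UN-SCC679 (vertical axis) against that in LLC (horizontal axis) for the 48 mitosis genes (points), coloured by the interaction test, with the dotted line for equal effects. Kif11, Kif20a, Ndc80 and Incenp lie in the upper left and Anln, Dlgap5 and Smc4 in the lower right, and Psrc1, Cdc25b, Foxm1 and Smc2 lie on the same side of 0 in both lines.

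Small changes were the rule for mitosis genes in each comparison. The median size of the log2 change, without its sign, was 0.185 in LLC, 0.149 in UN-SCC679 with the hairpin and 0.0528 with overexpression, against 0.352, 0.262 and 0.109 over all genes tested. Only Mki67, Kif20a and Ncapd2 changed at least 1.5-fold in LLC, which is 6.25% of the 48 against 25.6% of all genes. In UN-SCC679 with the hairpin this was Psrc1 alone (2.08% against 18.3%), and with overexpression no mitosis gene (0% against 4.84%). At 2-fold the counts were 0, 1 and 0 of the 48, against 12.2%, 10.3% and 2.54% of all genes. The share of genes called was nonetheless above that of all genes in both hairpin comparisons. The mitosis genes had more counts than most genes, as given above, and the part of abundance in either share was not tested.

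**Figure D4:**
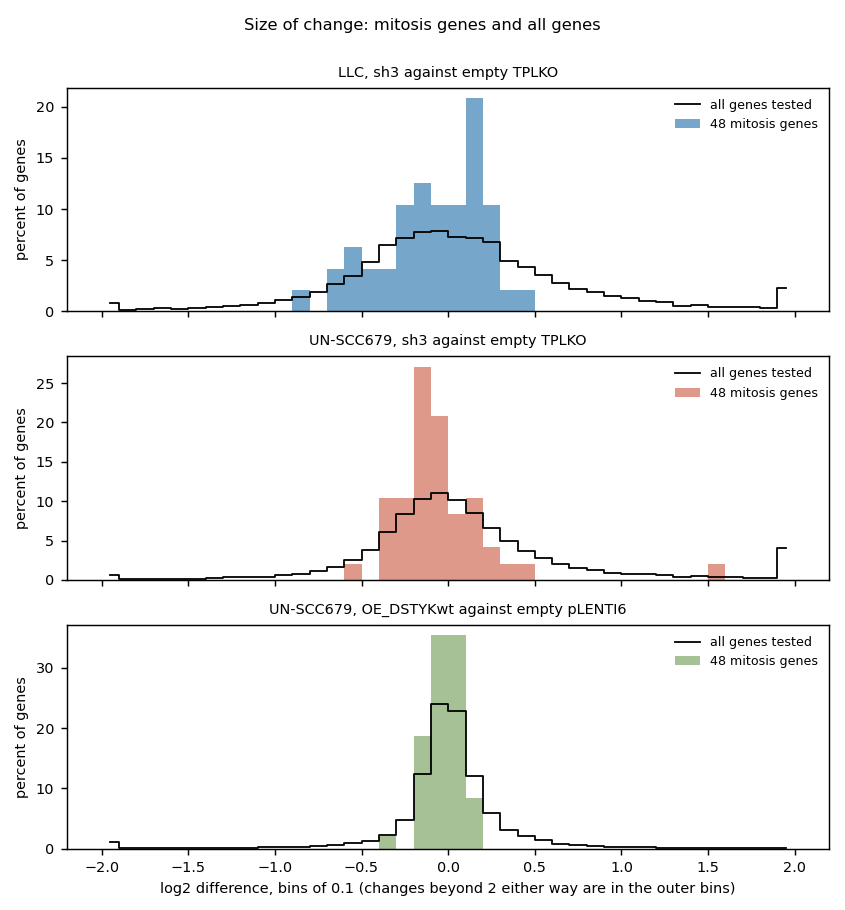
Percent of genes (vertical axes) by log2 difference in bins of 0.1 (horizontal axis) for the 48 mitosis genes (filled) and all genes tested (line) in the 3 DSTYK comparisons. The mitosis genes lie within -0.84 and 0.49 in LLC, and Psrc1 at 1.56 lies apart from the rest in UN-SCC679 with the hairpin.

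Overexpression of DSTYK in UN-SCC679 moved few mitosis genes, and by little. Dstyk itself was higher there by only 0.25 to 0.33 on the log2 scale over the settings. Of the 48 genes, 5 rose and 9 fell, 29.2% of them against 29.7% of all 13975 genes tested (14.6% higher and 15.2% lower), and the groups did not overlap for 29 of the 48 against 46% of all genes. The share called was close to that of all genes. The number of calls depended on single libraries: without the first empty pLENTI6 library 7 rose and 12 fell, and without the first, the second or the third OE_DSTYKwt library 2, 1 or 2 rose and 5, 6 or 6 fell. Without that empty library the changes of the 13 genes named below as called, other than Bub1, kept their direction and their call, with Cenpf at 0.11 instead of 0.16.

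Psrc1 fell the most, from 12.3, 12.2 and 11.6 CPM with empty pLENTI6 to 9.05, 9.19 and 10.4 CPM with OE_DSTYKwt. All 3 overexpressing libraries lay below the empty ones, a fall of 0.34 (SE 0.062; adjusted p = 0.00313). Cdc20 had 274, 259 and 264 CPM with empty pLENTI6 and 235, 234 and 232 CPM with OE_DSTYKwt, and fell by 0.18 (adjusted p = 0.00103). Ccna2, the cyclin of S phase and early mitosis, fell by 0.17 (adjusted p = 0.000956), Cdca8 by 0.16 and Ect2 by 0.14. Anln rose by 0.13 (adjusted p = 0.00901), from 358.4 ± 12.4 to 392.9 ± 1.59 CPM. The calls of Psrc1, Cdc20, Ccna2, Cdca8, Ect2 and Anln held in every setting tried, with adjusted p up to 0.0204 for Psrc1 and up to 0.0496 for Cdca8.

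Cenpf, which encodes a kinetochore protein, rose by 0.16 with overexpression, Hmmr by 0.13, Smc2 by 0.11 and Aurka by 0.099. Aurkb fell by 0.12, Incenp by 0.11 and Smc4 by 0.10. These 7 calls were each lost in at least 1 other setting. Bub1 fell by 0.080 (adjusted p = 0.0467), close to the threshold. Of the passenger complex, 3 of 4 genes fell, Cdca8, Aurkb and Incenp. Mki67 had 404, 499 and 503 CPM with empty pLENTI6 and 453, 483 and 508 CPM with OE_DSTYKwt. The groups overlapped, and its difference of 0.038 did not pass the test (adjusted p = 0.757). Foxm1 and Cdc25b had differences of -0.013 and 0.054 with adjusted p of 0.764 and 0.169.

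The overexpression effect was set against the hairpin effect in UN-SCC679, which shares no library with it. The 2 effects are not at matched changes of Dstyk, which were 0.25 to 0.33 with overexpression and -0.51 to -0.44 with the hairpin over the settings. By the interaction test, 24 of the 48 genes had a higher effect with overexpression than with the hairpin and 10 a lower effect, 70.8% against 51.9% of all 14975 genes tested (25.8% higher and 26.1% lower). With scaling by library size alone these counts were 14 and 13, and without the first empty pLENTI6 library they were 25 and 10. Without it Mki67 differed by 0.21 instead of 0.31. Psrc1 alone differed 2-fold, against 9.01% of all genes, and Smc2 also differed 1.5-fold, against 16.2%. Psrc1 had the largest difference, -1.90 (SE 0.085; adjusted p = 2.14e-10), followed by Cdc25b with -0.43, Kif11 and Incenp with -0.28, Ndc80 with -0.22 and Ccnb2 with -0.20. Smc2 differed by 0.69 (SE 0.040; adjusted p = 3.44e-09), Top2a by 0.45, Anln by 0.41, Foxm1 by 0.38, Kif4 by 0.34 and Mki67 by 0.31. Psrc1 and Incenp rose with the hairpin and fell with overexpression, and Anln, Smc2 and Cenpf fell with the hairpin and rose with overexpression. A further 5 genes, Cdc20, Ccna2, Ect2, Aurkb and Smc4, fell in both. Of these overexpression calls, those of Incenp, Smc2, Cenpf, Aurkb and Smc4 were each lost in at least 1 other setting. The remaining 29 of the 39 genes called with the hairpin were not called with overexpression. How many of all genes were called the same or the opposite way was not counted. Across the 48 genes these effects had a Pearson correlation of -0.35 and a Spearman correlation of 0.034. Without Psrc1 the Pearson correlation was 0.051.

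The 2 lines with the empty TPLKO vector differed in the level of most mitosis genes. Those libraries are also the controls of the hairpin comparisons, so the differences are given side by side with them and not related to them. Relative to UN-SCC679, 19 of the 48 genes were higher in LLC and 26 lower, 93.8% against 82.9% of all 14351 genes tested (40.9% higher and 42% lower), and the groups did not overlap for 45 against 84.3%. Pttg1 was 3.10-fold lower in LLC (18.97 ± 0.573 against 58.89 ± 0.584 CPM), Ect2 2.52-fold, Ttk 2.36-fold, Smc4 2.24-fold and Cdc20 2.10-fold lower. Cdc25b was 2.38-fold higher (163.4 ± 3.05 against 68.77 ± 1.03 CPM) and Ndc80 2.19-fold higher. These 7 genes reached a 2-fold difference, against 35.3% of all genes, and 13 reached 1.5-fold, against 52%. The adjusted p was 1.12e-11 or less for these 7.

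Within UN-SCC679, the 2 empty-vector groups differed too, although neither carried the hairpin or added DSTYK. Dstyk itself was lower with empty pLENTI6, by -0.30 to -0.16 on the log2 scale, and was called in every setting. Its mean was 10.23 TPM with empty TPLKO, 8.929 TPM with empty pLENTI6 and 11.51 TPM with OE_DSTYKwt. Vector and doxycycline differ between the 2 empty-vector groups. The deposited tables also name the cells differently, so the cell stock may differ too, and these cannot be told apart. Relative to empty TPLKO, 14 of the 48 genes were higher with empty pLENTI6 and 22 lower, 75% against 68.7% of all 14080 genes tested (35.4% higher and 33.3% lower), and the groups did not overlap for 39 against 73.3%. Without the first empty pLENTI6 library 16 were higher and 22 lower, and Spc25 differed by -1.12. Spc25, a subunit of the Ndc80 complex, was at 30.58 ± 1.38 CPM with pLENTI6 and 64.63 ± 2.34 CPM with TPLKO, a difference of -1.08 (SE 0.044; adjusted p = 1.82e-08). It was the only mitosis gene to differ 2-fold there, against 14.4% of all genes, and Kif4 and Cenpa also reached 1.5-fold, against 25.6%. Kif4, Smc2, Top2a and Cenpe were lower by 0.60, 0.46, 0.40 and 0.40, and Cenpa, Pttg1 and Ccnb2 were higher by 0.62, 0.53 and 0.49. Differences of this size between empty vectors stand beside hairpin effects of 0.57 for Smc2 and 0.40 for Top2a in the same line. Psrc1 was higher with empty pLENTI6 by 0.27 to 0.37 over the settings, beside its difference of -0.34 with overexpression. Its mean was 11.67 TPM with empty TPLKO, 13.94 TPM with empty pLENTI6 and 11.42 TPM with OE_DSTYKwt.

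Transcripts of a few genes shifted within the gene. Cdc25b has 2 main coding transcripts in these libraries. In LLC, Cdc25b-201 had 21.4, 25.3 and 21.6 TPM with the empty vector and 53.0, 52.7 and 51.9 TPM with sh3, while Cdc25b-202 had 68.3, 66.2 and 66.8 TPM and then 63.7, 62.7 and 62.5 TPM. The first transcript went from 25.35 ± 2.12% to 45.0 ± 0.363% of the counts of the gene and the second from 72.67 ± 1.76% to 52.41 ± 0.186%. In UN-SCC679 with the hairpin both had higher means, 17.01 ± 4.7 against 11.11 ± 1 TPM for Cdc25b-201 and 35.78 ± 4.36 against 26.63 ± 0.6 TPM for Cdc25b-202, with a wide spread between the sh3 libraries. With pLENTI6 the pair stood at nearly equal shares in both groups, 48.06 ± 4.57% and 48.93 ± 4.03% with the empty vector and 48.35 ± 3.16% and 48.37 ± 3.17% with OE_DSTYKwt. Transcript values were not tested, since the split of shared reads between transcripts is an estimate.

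**Figure D5:**
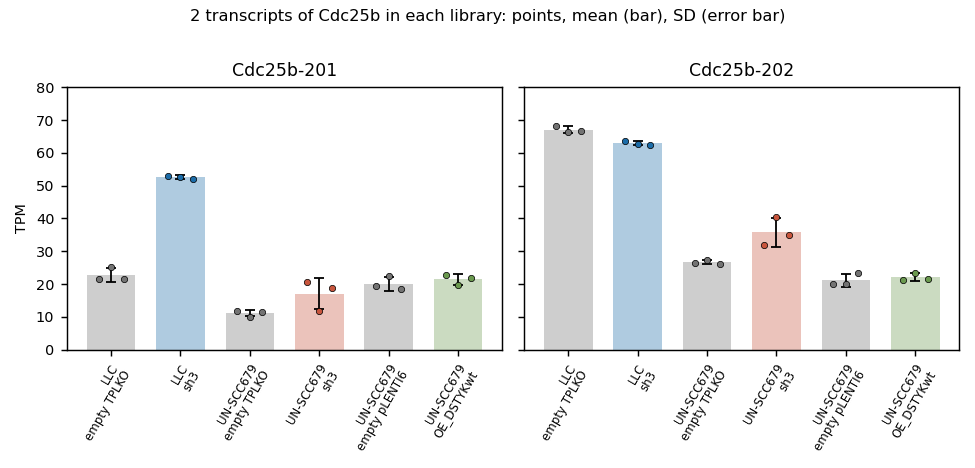
TPM (vertical axes, starting at 0) of Cdc25b-201 (left) and Cdc25b-202 (right) in each library (points), with the group mean (bar) and SD (error bar) for the 6 groups of 3. Cdc25b-201 is at 52.54 TPM with sh3 in LLC against 22.77 TPM with the empty vector, and Cdc25b-202 is close to level there.

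Kif23, the subunit of centralspindlin, differed in direction between counts and level per length in LLC. Its counts rose, but its level per length was 111.1 ± 8.32 TPM with the empty vector and 101.2 ± 3.68 TPM with sh3. The coding Kif23-201, which holds most of the counts, went from 32.18 ± 1.53 to 41.04 ± 1.68 TPM. Kif23-206 and Kif23-212, annotated as processed transcripts and not as coding, went from 20.58 ± 4.82 to 12.87 ± 1.94 TPM and from 25.9 ± 2.12 to 16.31 ± 0.66 TPM. Cenpa-210, a transcript annotated for nonsense-mediated decay, had 0.545, 5.12 and 8.15 TPM in LLC with the empty vector and 27.2, 36.8 and 39.7 TPM with sh3, while the coding Cenpa-205 had 28.5 ± 0.86 and 25.35 ± 2.12 TPM. The gene rose in counts, and the mean of Cenpa-210 was higher while that of Cenpa-205 was not. Several of the genes share exon bases with another gene, among them Cdc25b with Spef1 and Kif20a with Cdc23 on the opposite strand and Foxm1 with Tex52 on the same strand, and how far reads were split between these is not known.

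Other genes of the cell cycle were read from lists beside the 48. Of 24 S phase genes, which copy DNA before mitosis, 1 rose and 21 fell in LLC and 0 rose and 19 fell in UN-SCC679 with the hairpin, with median changes of -0.32 and -0.27. This is 91.7% and 79.2% of the list called, against 72.6% and 63.8% of all genes tested, of which 36.4% and 32% fell. In LLC, Tyms, which makes thymidylate, fell from 83.25 ± 3.01 to 34.16 ± 1.1 CPM (log2 -1.29; adjusted p = 6.29e-12) and Mcm5, a subunit of the replicative helicase, fell by 1.01. In UN-SCC679, Rrm2, a subunit of ribonucleotide reductase, fell by 0.56 and Cdc6, a loading factor of that helicase, by 0.55, and Tyms had a difference of -0.057 (adjusted p = 0.0973). S phase genes thus fell more uniformly than the mitosis genes in both lines, and the difference between the lists was not tested. With overexpression, 2 of the 24 rose and 3 fell, 20.8% of the list against 29.7% of all genes.

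The 5 lists nearer to mitosis each held more falls than rises with the hairpin in both lines. Of 17 genes of the anaphase-promoting complex, 2 rose and 13 fell in LLC and 2 rose and 11 fell in UN-SCC679 with the hairpin. Of 35 other kinetochore and centromere genes, 6 rose and 23 fell in LLC and 7 rose and 21 fell in UN-SCC679. Of 16 genes of cohesin and the other condensin, 1 rose and 11 fell in LLC, where Stag1, a cohesin subunit, fell by 1.39 (adjusted p = 1.13e-13), and 5 rose and 9 fell in UN-SCC679. Of 30 other spindle and centrosome genes, 11 rose and 15 fell in LLC and 7 rose and 17 fell in UN-SCC679. Of 14 other genes of entry and cytokinesis, 2 rose and 10 fell in LLC, but 3 rose and 6 fell in UN-SCC679, where the median was -0.025 and 7 lay above 0. The share called in these 5 lists ran from 75% to 88.2% in LLC, against 72.6% of all genes, and from 64.3% to 87.5% in UN-SCC679, against 63.8%. Among the entry and cytokinesis genes, Haspin, the kinase that marks centromeric histone H3, fell by 0.56 in LLC and 0.59 in UN-SCC679, and Cep55, an abscission factor, rose by 0.53 and 0.31. With overexpression, each of these 5 lists had at most 6 rises and at most 4 falls. The share called ran from 23.3% to 37.5%, around the 29.7% of all genes.

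A list of 24 genes known for control of cell cycle transcription was read in the same way. It holds subunits of NF-Y and MuvB, E2F and retinoblastoma family members, Mybl2, Trp53 and Cdkn1a, and binding to the promoters printed above was not measured. In LLC 9 rose and 10 fell, 79.2% called against 72.6% of all genes. In UN-SCC679 with the hairpin 8 rose and 11 fell, 79.2% against 63.8%. With overexpression 4 rose and 11 fell, 62.5% against 29.7% of all genes, of which 15.2% fell. Nfyc, a subunit of the CCAAT-binding factor NF-Y, fell from 36.21 ± 0.785 to 10.17 ± 1.04 CPM in LLC (log2 -1.83; adjusted p = 2.2e-11) and by 0.22 in UN-SCC679, while Nfyb, a second subunit, rose by 0.61 in LLC. Mybl2, which encodes B-MYB, fell by 0.72 in UN-SCC679 (adjusted p = 5.64e-09), from 50.48 ± 0.815 to 30.7 ± 0.795 CPM, and had a difference of 0.0021 in LLC (adjusted p = 0.934). Cdkn1a, the inhibitor of cyclin-dependent kinases known as p21, rose from 5.206 ± 0.619 to 15.47 ± 0.456 CPM with the hairpin in UN-SCC679 (log2 1.57; adjusted p = 2.06e-08), fell by 0.70 with overexpression (adjusted p = 0.00197), and fell by 0.064 in LLC (adjusted p = 0.0413). Whether any of these regulators is linked to the changes of the 48 genes was not tested.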

How the data were processed

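RNA of 18 libraries of 2 mouse lung cancer lines was sequenced with a stranded Illumina mRNA kit in 75-base reads on a NextSeq instrument, per the labels' protocols, which name both single-end and paired-end runs. Kallisto and sleuth were used with build mm10, per the submitters' processing notes; versions and the strand setting are not given in the sources used here. The authors deposited estimated counts per transcript, which are not whole numbers and not normalized, and effective transcript lengths. The authors' deposited normalized values were not used.

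Of 118489 transcripts, 116816 matched GENCODE M21 (GRCm38), and the 1673 others took 0.515% to 0.593% of each library's counts and were left out. Counts were summed per gene and rounded. TPM was computed from counts and effective lengths, and CPM from counts after TMM scaling. Each comparison used its own 6 libraries, and each interaction 12 libraries, in edgeR 4.0.16 (R 4.3.3, limma 3.58.1): default expression filter (minimum count 10, total 15), quasi-likelihood test and Benjamini-Hochberg adjustment over all tested genes, with a call at an adjusted p under 0.05. All 48 genes passed the filter in each comparison. The scripts were tested on simulated data. Intervals between groups are given as SE, and SD is over 3 libraries. The SE was derived as the size of the log2 difference divided by the square root of the quasi-likelihood F statistic. Counts of reads carry no molecular identifiers.

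The mitosis genes, their roles and the other lists were chosen with earlier results of these data known. Named in the text are Dstyk, the 8 largest rises and falls called in each comparison, the 6 largest each way in each interaction, genes called in opposite directions with the hairpin in the 2 lines, and the 2 called genes each way with the largest change of each other list; further mitosis genes are given within their role. Alternatives were DESeq2 1.42.0, scaling by library size alone, no filter, a filter of 1 CPM in 3 libraries, the replicate number as a block, transcript length as an offset, and leaving out each library.

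Within groups, the mean chi-square per gene between 2 libraries was 1.92 to 5.04, except 12.2 and 13.8 for the first empty pLENTI6 library against the others, above sampling noise in every pair.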

Additional observations from a re-analysis of the deposited data

Results flagged for a closer look

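The hairpin effect differed between the lines, by the interaction test on 12 libraries, for the 12 mitosis genes with the largest differences. The effect in UN-SCC679 minus that in LLC was 1.07 for Psrc1, 0.78 for Kif20a, 0.73 for Kif11, 0.60 for Ncapd2, 0.58 for Mki67 and 0.53 for Ndc80 on the log2 scale. It was -0.46 for Dlgap5, -0.44 for Anln, -0.37 for Smc4, -0.37 for Kif23, -0.35 for Espl1 and -0.32 for Bub1. All 12 had an adjusted p of 8.06e-06 or less (edgeR's quasi-likelihood test, Benjamini-Hochberg). Kif23 did not keep its call with transcript lengths as an offset (-0.14; adjusted p = 0.127). The lines also differ in strain and in the fall of Dstyk, which cannot be told apart from the line.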

How the results depend on the processing

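Counts of called mitosis genes with the hairpin moved little: leaving out each library gave 18 to 20 higher and 21 to 23 lower in LLC, and 11 higher and 25 to 29 lower in UN-SCC679. Scaling by library size alone gave 14 higher and 20 lower in UN-SCC679 against 11 and 28, and 14 higher and 13 lower in the overexpression against hairpin interaction against 24 and 10. With overexpression, 3 genes were higher with length as an offset against 5, and leaving out each library gave 1 to 7 higher and 5 to 12 lower. The hairpin interaction gave 12 higher and 24 lower with the CPM filter and 10 and 21 with the length offset, against 15 and 19. Among single genes with the hairpin, Kif23 in LLC reversed with the length offset (-0.13), and Kif2c and Prc1 in LLC were lost with it (adjusted p = 0.0578 and 0.0922); the cause was not tested. With overexpression, 26 of 168 values for single genes lost their call, and none reversed. Same-numbered libraries were at most weakly paired. Their correlations were -0.0146, 0.0955 and -0.00725 in LLC, 0.0188, 0.0591 and 0.0482 in UN-SCC679 with TPLKO and -0.0838, -0.0448 and 0.0709 with pLENTI6. Differently numbered libraries had -0.0784 to 0.0871 in LLC, -0.0463 to -0.0049 in UN-SCC679 with TPLKO and -0.091 to 0.137 with pLENTI6. Only in UN-SCC679 with TPLKO did all same-numbered values lie above the others, and this was not tested. With the replicate block, 20 rose and 23 fell in LLC, 11 and 27 in UN-SCC679 with the hairpin, and 4 and 7 with overexpression, where Aurka and Smc4 were lost. With 3 libraries a group, small differences could be called only because the spread between libraries was small.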

Other observations

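Psrc1 was looked at with its neighbours on chromosome 3 after its values had been seen. Sort1, the sorting receptor sortilin, rose with the hairpin by 2.67 on the log2 scale in LLC (adjusted p = 1.07e-11) and by 1.30 in UN-SCC679 (adjusted p = 1.7e-10), from means of 0.637 to 4.04 TPM and 6 to 14.8 TPM (edgeR's quasi-likelihood test, Benjamini-Hochberg). With overexpression Sort1 had a difference of -0.063 (adjusted p = 0.437), where Psrc1 fell. Celsr2, the gene next to Psrc1, fell by 0.60 with overexpression (adjusted p = 0.013), in the same direction as Psrc1. Its level was low, with means of 0.764 TPM with empty pLENTI6 and 0.471 TPM with OE_DSTYKwt. With the hairpin in UN-SCC679 Celsr2 had a difference of -0.34 (adjusted p = 0.221), although its mean TPM went from 0.446 to 0.511. In LLC it did not pass the filter on low counts. Psma5, a proteasome subunit gene nearby, fell by 0.51 in LLC, 0.17 in UN-SCC679 with the hairpin and 0.18 with overexpression. Sars, the seryl-tRNA synthetase gene nearby, fell by 0.10 in LLC and 0.38 in UN-SCC679, so Psrc1 and Sort1 rose with the hairpin beside these 2 neighbours, which fell. Whether the rises of Psrc1 and Sort1 are linked was not tested.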
